A study of Mus musculus with 22 samples.

Results

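The genes described here are 10 parts of the Wnt pathway in the gut epithelium, the ligands Wnt3, Wnt6, Wnt9a, Wnt9b and Wnt11, the Frizzled receptors Fzd5 and Fzd7, the R-spondin receptor Lgr4 and the co-receptors Lrp5 and Lrp6. They were chosen by symbol, and all 10 were found among the 52636 genes of the deposited table. RNA-seq was done on 22 libraries of duodenal organoids, which are small epithelial structures grown in Matrigel from intestinal crypts. The 4 organoid lines each came from 1 adult wild type CD1 mouse, and every culture received EGF, Noggin, R-spondin 1 and, for the first days, Y-27632. The labels give passage 12 for line 1, 14 for line 2 and 4 for lines 3 and 4. For its comparison of application methods the study lists lines of male mice at passage 12 and 14. It lists the others as lines of female mice at passage 2, not 4. Line 4 was thus the only low-passage line that was treated and, by that list, the only female one. Line, passage and sex cannot be told apart. Untreated cultures gave 4 libraries, 1 per line, and each of 6 treated groups gave 3, from lines 1, 2 and 4. Treatment was cold atmospheric plasma (CAP), a helium plasma that loads the medium with reactive species, applied to the culture itself with fresh medium given 30 min or 24 h later (direct CAP), carried over with medium from another treated culture (indirect CAP), or carried over with medium treated without organoids (plasma-activated medium, PAM). The labels give 30 minutes and 24 hours for indirect CAP and PAM too, but the study's headings place these libraries at exposure from day 1 and from day 2, the names used here, and all cultures were harvested at day 3. Groups exposed from day 2 were therefore harvested sooner after exposure than those exposed from day 1. By the study's account their medium had also been treated at day 1, while the groups from day 1 received it fresh. Time of exposure, time of recovery and age of the treated medium thus cannot be told apart. The labels call the cells stem cells, but the libraries held the markers of all epithelial lineages looked for.

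Wnt proteins are lipid-modified secreted ligands. They bind a Frizzled receptor together with Lrp5 or Lrp6, which protects beta-catenin from destruction and lets it switch on target genes with TCF factors. R-spondins bind Lgr4 or Lgr5 and keep Frizzled receptors on the surface by removing the ubiquitin ligases Znrf3 and Rnf43. In the small intestine Paneth cells are the epithelial source of Wnt3 and sit beside the stem cells at the crypt base. The mesenchyme, which organoids lack, is a source of Wnt ligands too. In these libraries the 7 pan-epithelial markers summed to between 121753 and 209517 per library and the 8 fibroblast and smooth muscle markers to between 4 and 31, with 1 of those 8 at 0 in all libraries. Endothelial and neural markers summed to no more than 28 and 24. The immune list summed to between 249 and 357, almost all of it Csf1r, with Cd3e, Cd79a and Ptprc at no more than 25 each. The values are read counts brought to a common total of 20 M reads (M for mega) in each library and rounded up, they are not divided by gene length, and the libraries held an estimated 19.4 to 28.7 M reads, so that a value near 10 stands for some 10 reads and carries a large counting error.

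Wnt3 and Wnt9b are neighbours on mouse chromosome 11. Wnt3 (ENSMUSG00000000125) lies at chr11:103774150-103817957 on the plus strand of GRCm38 and Wnt9b (ENSMUSG00000018486) at chr11:103727364-103749821 on the minus strand, so that they point away from each other with 24.3 kb and 0 annotated genes between their starts. Wnt6 (ENSMUSG00000033227) lies at chr1:74771892-74785322 on the plus strand. The bases just before the annotated starts are shown for these 3 genes because Wnt3 and Wnt9b were lower together after CAP and Wnt6 was higher. They were taken from RefSeq promoter windows on GRCm38.p6, from chr11:103773925-103774149 for Wnt3, chr11:103749822-103750071 for Wnt9b (minus strand) and chr1:74771642-74771891 for Wnt6, and lie outside the annotated exons of these genes. Capitals mark the GC box (GGGCGG on either strand).
Wnt3: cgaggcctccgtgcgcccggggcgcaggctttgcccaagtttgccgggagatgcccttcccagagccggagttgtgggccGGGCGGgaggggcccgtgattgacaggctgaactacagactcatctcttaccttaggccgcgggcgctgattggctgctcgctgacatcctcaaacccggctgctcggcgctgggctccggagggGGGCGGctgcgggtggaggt
Wnt9b: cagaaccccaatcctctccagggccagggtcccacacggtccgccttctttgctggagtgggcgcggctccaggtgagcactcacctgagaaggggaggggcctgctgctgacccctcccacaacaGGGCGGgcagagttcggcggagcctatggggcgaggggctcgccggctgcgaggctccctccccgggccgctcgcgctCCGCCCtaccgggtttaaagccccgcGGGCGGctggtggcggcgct
Wnt6: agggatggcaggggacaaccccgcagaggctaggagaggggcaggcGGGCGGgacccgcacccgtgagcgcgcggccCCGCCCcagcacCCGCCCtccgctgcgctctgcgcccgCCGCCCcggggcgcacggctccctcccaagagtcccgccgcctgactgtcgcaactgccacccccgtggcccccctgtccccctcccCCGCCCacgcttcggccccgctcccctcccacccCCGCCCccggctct
The printed stretches held 2, 3 and 6 GC boxes, at a GC content of 68.9%, 72.0% and 79.6%. A GC box was found in 7 of the 8 members with a RefSeq window, against 32.7% of the 32851 windows of 250 bases, and Lgr4 was the member without one. The TCF/LEF sequence CTTTGAT, the AP-1 sequence TGANTCA and the E-box CACGTG were in 3.21%, 6.75% and 6.02% of all windows. Among the 8 members only Wnt11 held a TCF/LEF match, 51 bases before its start, and only Wnt9a held an E-box. Lrp5 and Lrp6 had no entry. These are matches of letters and say nothing of binding.

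In untreated organoids the receptors were far more abundant than the ligands. On a scale of value per kb of exon, Fzd5 stood at 1150 ± 54.6 (SD, n = 4), Lgr4 at 972 ± 28.1, Lrp5 at 456 ± 18.9, Lrp6 at 372 ± 21.3 and Fzd7 at 369 ± 54.1. Wnt3 was the highest ligand at 63.6 ± 11.3, above Wnt9b at 8.19 ± 2.60, Wnt6 at 2.85 ± 0.864, Wnt9a at 2.70 ± 0.649 and Wnt11 at 0.846 ± 0.575. In that order Lrp6 and Fzd7 overlapped between libraries, as did Wnt6 and Wnt9a, and the other neighbours did not. Wnt3 ranked first of the 19 Wnt genes in the table and Wnt9b after Wnt4, which stood at 14.5 ± 3.92. Among the 10 Frizzled genes Fzd5 and Fzd7 ranked highest, with Fzd2 next at 52.9 ± 13.9. Wnt1, Wnt3a and Wnt8b were listed at 0 in all 4 untreated libraries.

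**Figure D1:**
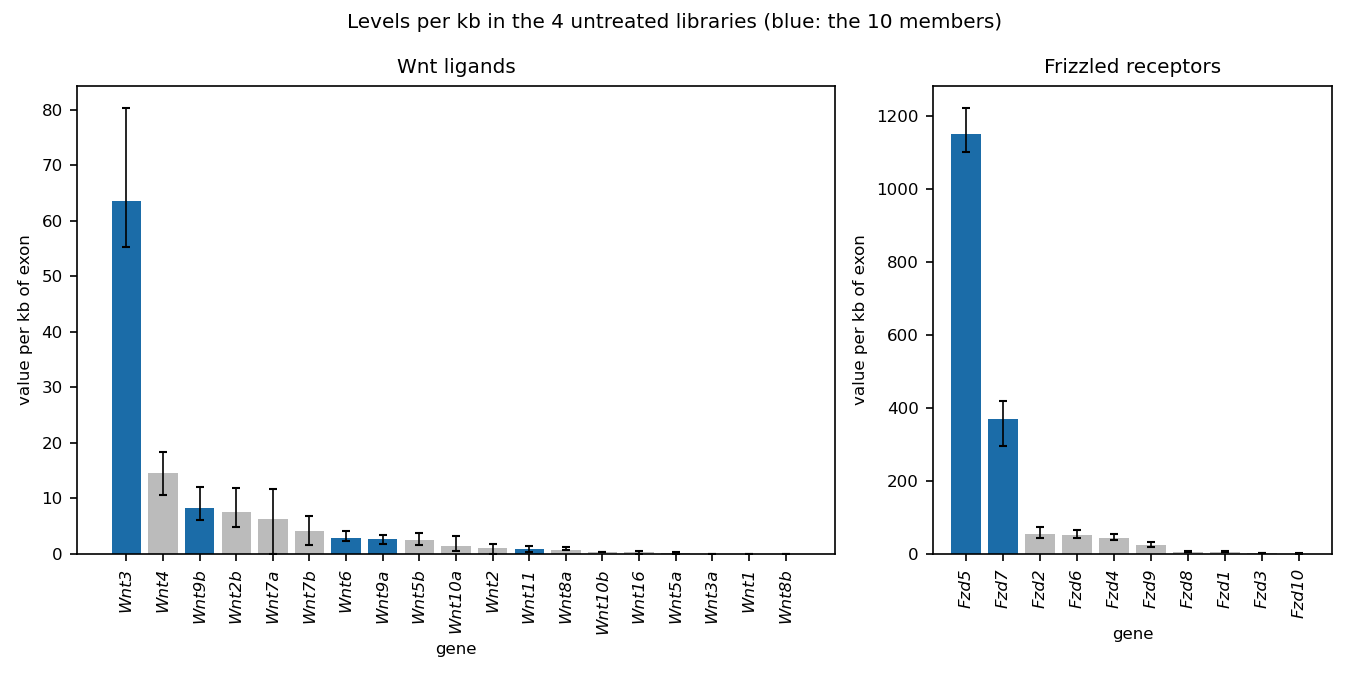
Mean level of each Wnt ligand (left) and Frizzled receptor (right) in the 4 untreated libraries, as value per kb of exon, with bars from the lowest to the highest library. Wnt3 stands at 63.6 and Fzd5 at 1150, each the highest of its family.

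Wnt3, the Paneth cell ligand, was lower in most treated groups. It read 247, 180, 185 and 170 in untreated lines 1 to 4, and 169, 246 and 115 in lines 1, 2 and 4 after direct CAP for 30 min. In the same line order it read 97, 153 and 75 after direct CAP for 24 h, 117, 182 and 73 after indirect CAP from day 1, and 36, 118 and 62 after PAM from day 1. It read 97, 116 and 53 after indirect CAP from day 2 and 54, 40 and 14 after PAM from day 2. The treated libraries lay below all 4 untreated ones in the groups of direct CAP for 24 h, PAM from both days and indirect CAP from day 2, and overlapped with them in the other groups. The group mean went from 195.5 ± 34.9 (SD, n = 4) untreated to 36.0 ± 20.3 (n = 3) after PAM from day 2.

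Values were tested with limma on log2(value + 1) over all genes, and a gene was called at a Benjamini-Hochberg adjusted p under 0.01 with at least a 2-fold difference. Wnt3 fell in PAM from day 2 (log2 fold change -2.59, SE 0.42, adjusted p = 0.00187). It fell in PAM from day 1 (-1.58, SE 0.36, adjusted p = 0.00834) and in indirect CAP from day 2 (-1.19, SE 0.27, adjusted p = 0.00808), but with the organoid line as a block the adjusted p was 0.0331 and 0.0120, and both calls were lost. The call in PAM from day 1 was lost with quantile normalization (adjusted p = 0.0161), no filter (0.0115) and all groups in one fit (0.0104) too, and that in indirect CAP from day 2 likewise (0.0128, 0.0107 and 0.0445). Over the 9 libraries of CAP for 24 h from day 1 (direct CAP for 24 h, indirect CAP and PAM) the difference was -1.07 (SE 0.33), which did not pass the test at an adjusted p of 0.0239. These 9 libraries come from 3 lines, 3 libraries each, and libraries of a line vary together, so they are not 9 independent samples, and with the line as a block the adjusted p was 0.0248. Fits against untreated with the line as a block rest on the labels of untreated lines 1 and 2, which are in doubt, as given under the processing. Calls lost or kept with that block are therefore uncertain. All comparisons with untreated share the same 4 libraries. In bulk RNA, fewer cells of a type and less RNA per cell cannot be told apart.

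Wnt9b, whose gene lies next to Wnt3, went lower still. It read 54, 34, 27 and 33 in untreated lines 1 to 4. In lines 1, 2 and 4 it read 28, 61 and 24 after the direct treatment of 30 min, 9, 18 and 6 after that of 24 h, and 9, 19 and 5 after indirect CAP from day 1. It read 0, 8 and 2 after PAM from day 1 and 5, 3 and 3 after indirect CAP from day 2, and was listed at 0 in all 3 libraries of PAM from day 2. Every treated group but direct CAP for 30 min lay below all untreated libraries. Wnt9b fell in indirect CAP from day 2 (-3.01, SE 0.32, adjusted p = 0.000251) and in PAM from day 1 (-3.62, SE 0.67, adjusted p = 0.00347), the latter call being lost with the line as a block (adjusted p = 0.0166). It was called in PAM from day 2 too (adjusted p = 0.000272), for which no fold is given. Over the 9 libraries from day 1 the mean was 8.44 ± 6.46 (SD, n = 9) against 37.0 ± 11.7 untreated, and the adjusted p of 0.0106 just missed the threshold. It was 0.00636 after quantile normalization, 0.00148 with a pseudocount of 10 and 0.000691 with all groups in one fit, but 0.0138 with the line as a block, 0.0152 without a filter and 0.124 with untreated lines 3 and 4 alone. The log2 fold change over these libraries was -2.38 with a pseudocount of 1 and -1.40 with 10. The size of the folds of Wnt9b thus depends on the pseudocount. In 5 of the 6 treated groups fewer than 3 libraries held a value of 10 or more, so in those comparisons Wnt9b passed the filter on low values through its untreated libraries.

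Over the 22 libraries log2(value + 1) of Wnt3 and Wnt9b had a Pearson r of 0.917. The points share organoid lines and treatments, so the r is a description only. Line 2 had the highest Wnt3 in 5 of the 6 treated groups and line 4 the lowest in 5 of 6, and for Wnt9b line 2 was highest in 4 and line 4 lowest in 3. This order was not particular to Wnt3 and Wnt9b. Line 2 was highest in 4 and line 4 lowest in 5 groups for Fzd7, and in 4 and 4 for Lrp6, while Wnt11 was highest in line 4 in 5. Of the cell type markers the order was counted for Lyz1 and Lgr5 only, and both had it in most treated groups. Lyz1, the lysozyme of Paneth cells, was highest in line 2 in 6 of 6 treated groups and lowest in line 4 in 5 of 6, and the stem cell receptor Lgr5 was highest in line 2 in 5 and lowest in line 4 in 5. The 8 Paneth markers summed to between 31369 and 44107 in untreated libraries, 15580 to 35789 after direct CAP for 30 min, 14941 to 25306 after direct CAP for 24 h, 9520 to 23033 after indirect CAP from day 1, 4594 to 20098 after PAM from day 1, 18846 to 30433 after indirect CAP from day 2 and 4970 to 22707 after PAM from day 2. Group medians of the sum, Wnt3 and Wnt9b, in this order, were 37041.5, 182.5 and 33.5 untreated. After direct CAP they were 19773, 169 and 28 for 30 min and 18942, 97 and 9 for 24 h. For indirect CAP they were 14290, 117 and 9 from day 1 and 24558, 97 and 3 from day 2. For PAM they were 10251, 62 and 2 from day 1 and 19770, 40 and 0 from day 2. After direct CAP for 30 min the sum overlapped with untreated, and 0 of the 8 Paneth markers were called (0.00564% of all genes were). Called lower were 3 of 8 in direct CAP for 24 h (2.17% of all genes were called in either direction), 3 of 8 in indirect CAP from day 1 (1.31%) and 4 of 7 tested in PAM from day 1 (10.2%). From day 2 it was 1 of 8 in indirect CAP (11.9%) and 1 of 8 in PAM (17.3%). The part of the marker sum in the levels of Wnt3 and Wnt9b was not tested.

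**Figure D2:**
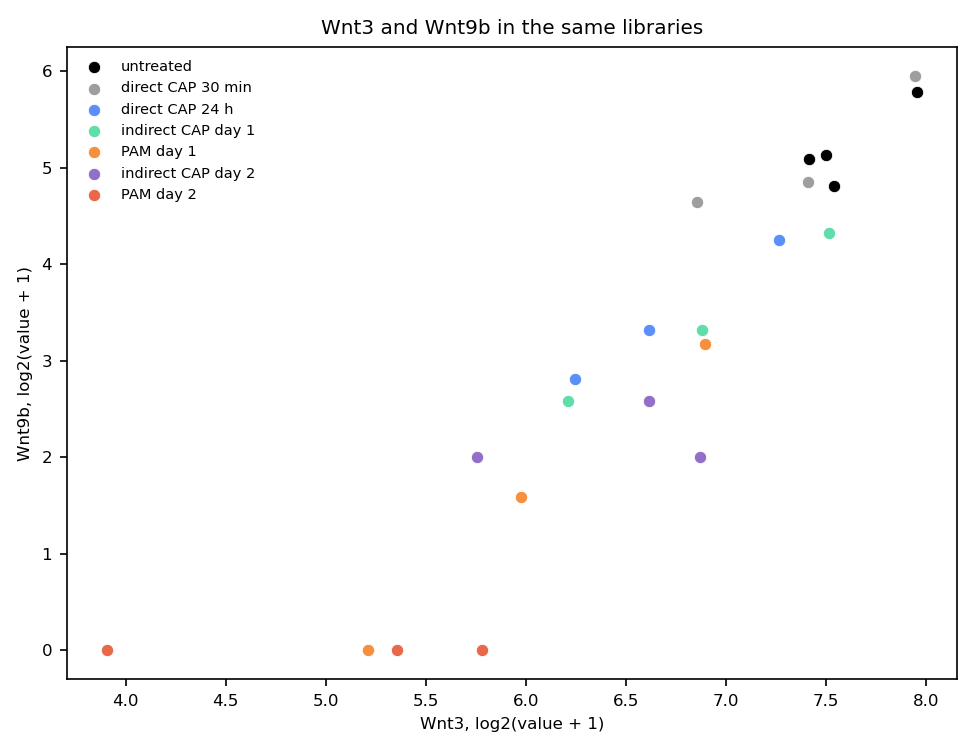
Wnt9b against Wnt3 in each of the 22 libraries, both as log2(value + 1), with 1 point per library coloured by group. Libraries with less Wnt3 held less Wnt9b (Pearson r = 0.917), and the 3 libraries of PAM from day 2 lie at 0 for Wnt9b.

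Wnt6, a ligand of several epithelia, had a higher mean in each treated group, from a very low level. It read 9, 6, 5 and 5 in untreated lines 1 to 4, and in lines 1, 2 and 4 it read 7, 11 and 13 after the direct treatment of 30 min, 20, 19 and 15 after that of 24 h, and 17, 24 and 29 after indirect CAP from day 1. It reached 45, 26 and 27 after PAM from day 1 and read 12, 18 and 11 after indirect CAP from day 2 and 11, 11 and 9 after PAM from day 2. All 9 libraries of CAP for 24 h from day 1 lay above all untreated ones. Wnt6 rose over those 9 libraries (log2 fold change 1.79, SE 0.27, adjusted p = 0.000507) and in PAM from day 1 alone (2.20, SE 0.33, adjusted p = 0.00139). With a pseudocount of 10 in place of 1 the difference over the 9 libraries was 1.06 (adjusted p = 0.00101). The size of the fold at such low values thus depends on the pseudocount. No untreated library reached the filter value of 10, so Wnt6 was tested only because treated libraries did. Without a filter the adjusted p was 0.00102 over the 9 libraries and 0.00284 in PAM from day 1. In direct CAP for 24 h and indirect CAP from day 1 the log2 fold changes of 1.41 (adjusted p = 0.0250) and 1.75 (0.0119) did not pass. Each did with all groups in one fit (adjusted p = 0.00401 and 0.00112) but not with the line as a block (0.0685 and 0.0292) or without a filter (0.0546 and 0.0194). Indirect CAP from day 2 gave 1.02 (adjusted p = 0.0357), which did not pass. Direct CAP for 30 min and PAM from day 2, whose lowest libraries were within the untreated range, left too few libraries at 10 for a test. An antisense gene, Gm29539, overlaps Wnt6 and read no more than 4.

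Wnt9a and Wnt11 stood at about the filter value or under it. Wnt9a read 6 to 11 in untreated libraries, 17 to 25 after direct CAP for 24 h, 16 to 30 after PAM from day 1 and 13 to 28 after indirect CAP from day 2, all above the untreated range. None of its comparisons passed the test. The closest was PAM from day 1 (log2 fold change 1.27, SE 0.33, adjusted p = 0.0155), and over the 9 libraries from day 1 it was 0.94 (adjusted p = 0.0204). In PAM from day 1 the adjusted p ran from 0.00861 with all groups in one fit to 0.0332 without a filter, 0.0433 with the line as a block and 0.102 with untreated lines 3 and 4 alone. Only 2 untreated libraries reached 10, so Wnt9a met the filter of 3 libraries through treated ones. Wnt11 was above 7 in 4 libraries only, all of line 4, with 17 after the direct treatment of 30 min, 18 after that of 24 h, 25 after indirect CAP from day 1 and 34 after PAM from day 1. The untreated library of line 4 read 5, and the other lines read 1 to 6 in every group. Wnt11 could be tested only over the 9 libraries from day 1, where it did not pass (1.05, SE 0.65, adjusted p = 0.231).

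**Figure D3:**
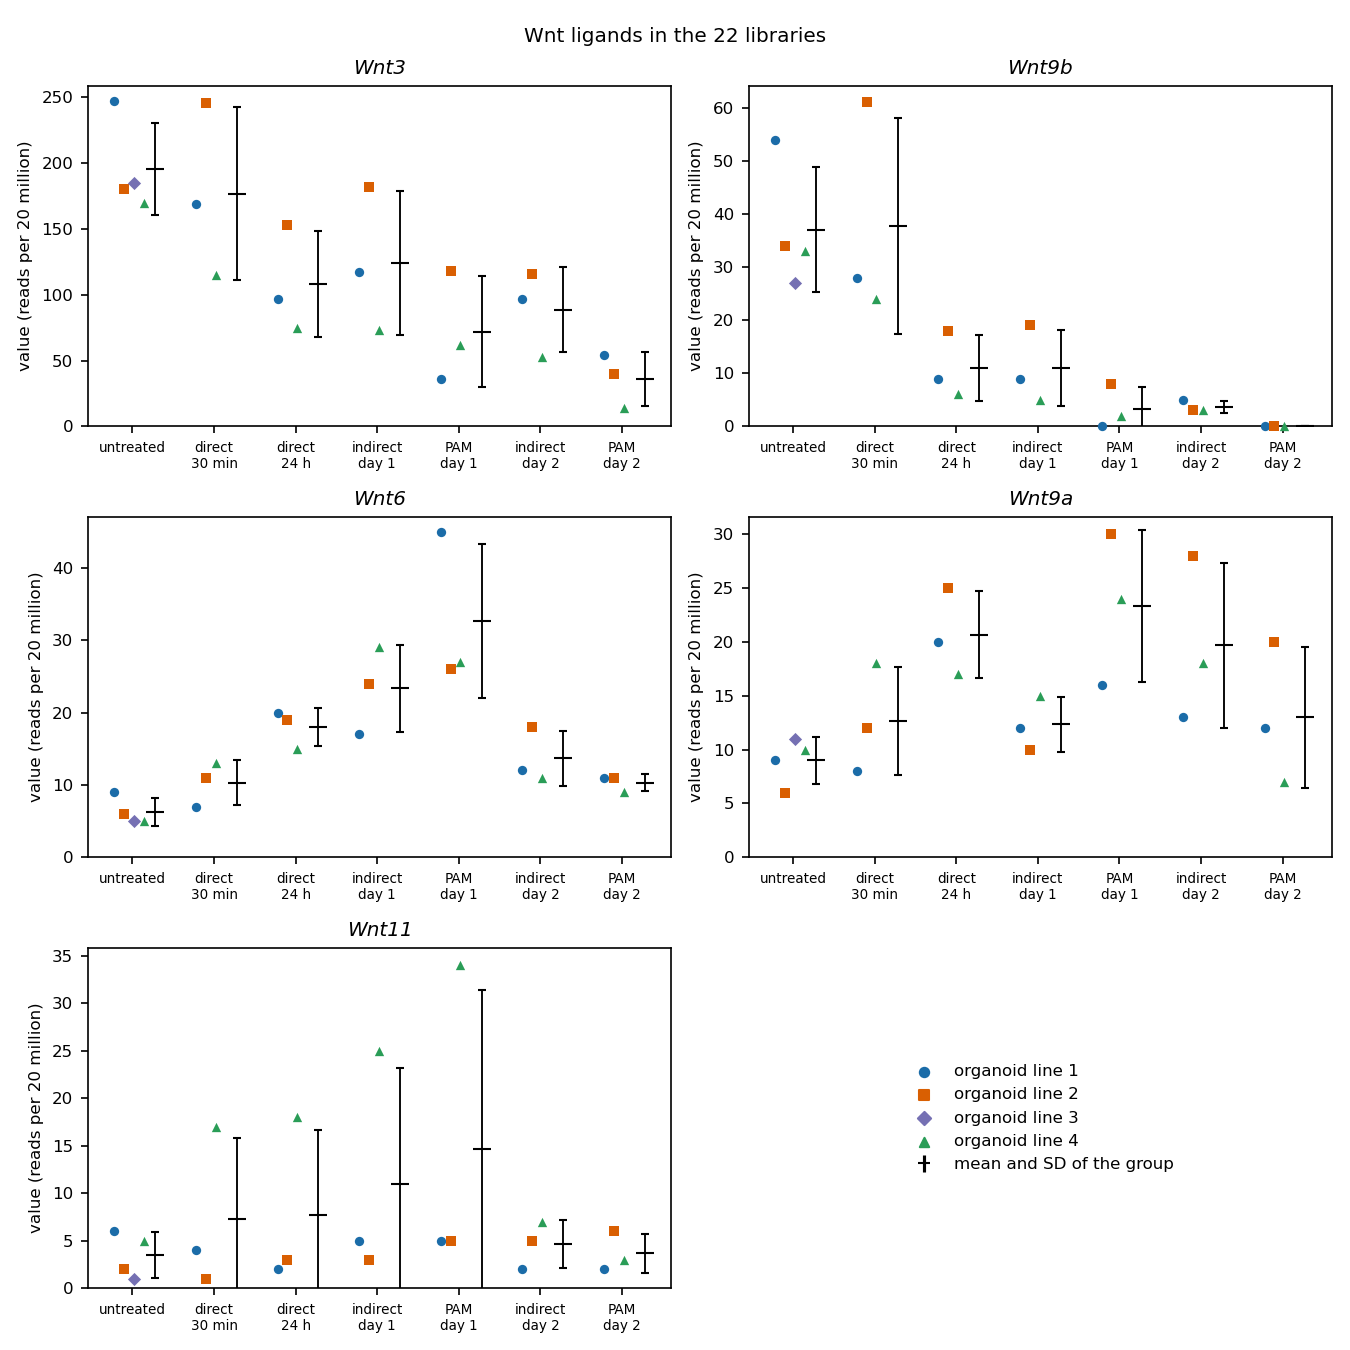
Values of the 5 ligands (reads per 20 M, not per length) in each library by group, with the colour and shape of a point giving the organoid line and black bars the group mean and SD, which end at 0. Wnt3 and Wnt9b are lowest after PAM from day 2, with means of 36.0 and 0, Wnt6 is highest after PAM from day 1, with a mean of 32.7, and Wnt11 exceeds 7 in line 4 only.

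Summed per kb, the 5 ligands stood at 78.1 ± 15.0 (SD, n = 4) untreated, 76.1 ± 23.3 (n = 3) after direct CAP for 30 min, 49.6 ± 12.0 after PAM from day 1 and 21.2 ± 8.44 after PAM from day 2. Wnt3 made up 79.9% to 83.6% of that sum in untreated libraries and 30.6% to 61.7% after PAM from day 1. Its share was 58.0% to 70.4% after direct CAP for 24 h, 48.8% to 75.8% after indirect CAP from day 1, 57.4% at the lowest and 66.2% on average after indirect CAP from day 2 and 39.6% to 65.8% after PAM from day 2. All these libraries lay below the untreated range, and those of direct CAP for 30 min (64.3% to 81.2%) overlapped with it.

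Fzd7, a Frizzled of crypt stem cells, had a lower mean in every group exposed for 24 h. It read 1889, 1664, 1332 and 1804 in untreated lines 1 to 4. In lines 1, 2 and 4 it read 1067, 1133 and 821 after direct CAP for 24 h, 1386, 1284 and 1038 after indirect CAP from day 1, 1015, 1065 and 943 after PAM from day 1, 1058, 1169 and 1113 after indirect CAP from day 2, and 798, 848 and 604 after PAM from day 2. Only direct CAP for 30 min (1659, 1620 and 1162) and indirect CAP from day 1 overlapped with untreated. Fzd7 fell in PAM from day 2 (log2 fold change -1.16, SE 0.16, adjusted p = 0.00105), a difference of -0.99 after quantile normalization, just short of 2-fold. It was lower by less than 2-fold over the 9 libraries from day 1 (-0.63, SE 0.13, adjusted p = 0.00240), in PAM from day 1 (-0.72, adjusted p = 0.00263) and in indirect CAP from day 2 (-0.58, adjusted p = 0.00587). The adjusted p stayed above 0.01 in direct CAP for 24 h (-0.73, adjusted p = 0.016) and indirect CAP from day 1 (-0.43, adjusted p = 0.0617). The sum of 5 stem cell markers was 49577 to 57996 untreated, 12176 to 15162 after PAM from day 1 and 9069 to 16475 after PAM from day 2. Its part in the level of Fzd7 was not tested.

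Fzd5, the most abundant Frizzled here and one tied to Paneth cell maturation, moved less. Its 4 untreated libraries read 7572 to 8457 and the 9 libraries of CAP for 24 h from day 1 read 4518 to 6664, with no overlap. The difference of -0.42 (SE 0.09, adjusted p = 0.00346) was under 2-fold, and PAM from day 1 alone gave -0.38 (adjusted p = 0.00480). With the line as a block both adjusted p-values passed over 0.01 (0.0111 and 0.0153). After PAM from day 2 it read 5905, 8308 and 7817 in lines 1, 2 and 4, overlapping with untreated (-0.13, adjusted p = 0.442). The ratio of Fzd5 to Fzd7 within a library was 4.01 to 5.85 untreated and 7.40 to 12.9 after PAM from day 2. Gm38058, an unconfirmed transcript, overlaps Fzd5 on the opposite strand over 1512 bases and read 1063 to 2174. The strand setting of the counting is not given in the sources used here, so reads of the pair cannot be told apart.

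Lgr4, the R-spondin receptor of most crypt cells, was lowest in the groups exposed from day 2. It read 5861, 5597, 5863 and 5557 in untreated lines 1 to 4. In lines 1, 2 and 4 it read 6302, 5903 and 5045 after PAM from day 1 and 5026, 5216 and 5041 after indirect CAP from day 1, against 3925, 3803 and 3334 after indirect CAP from day 2 and 3623, 2818 and 2567 after PAM from day 2. Both groups from day 2 lay below all untreated libraries and below every other group's libraries. The differences from untreated were -0.64 (SE 0.08, adjusted p = 0.000416) and -0.94 (SE 0.12, adjusted p = 0.000779), both under 2-fold. Over the 9 libraries from day 1 the difference was -0.05 (adjusted p = 0.654), and indirect CAP from day 1, though below all untreated libraries, gave -0.17 (adjusted p = 0.0934). Day 2 against day 1 gave -0.47 for indirect CAP (SE 0.09, adjusted p = 0.0403, or 0.00206 with the line as a block and 0.0650 without a filter) and -0.95 for PAM (SE 0.16, adjusted p = 0.0545, or 0.0207 with the block, 8.67e-05 with all groups in one fit and 0.0869 without a filter). Neither reached 2-fold.

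Lrp5 and Lrp6 are close relatives that serve the same receptor complex, and their levels parted after CAP. Lrp5 read 4521, 4502, 4166 and 4566 in untreated lines 1 to 4, and in lines 1, 2 and 4 it read 6325, 5246 and 4809 after direct CAP for 24 h, 5950, 5297 and 7124 after indirect CAP from day 1 and 8466, 6048 and 7134 after PAM from day 1. All 9 lay above the untreated range. It read 7612, 5176 and 6567 after indirect CAP from day 2 and 6431, 4373 and 7212 after PAM from day 2, where line 2 fell within the untreated range. Lrp5 was higher by less than 2-fold in PAM from day 1 (0.69, SE 0.11, adjusted p = 0.00211) and in indirect CAP from day 2 (0.52, SE 0.12, adjusted p = 0.00955), which with the line as a block became 0.0107 and 0.0261. Over the 9 libraries from day 1 Lrp5 was higher by 0.48 (SE 0.13, adjusted p = 0.0103, or 0.0274 with the block). For direct CAP for 24 h (0.29) and PAM from day 2 (0.41) the adjusted p was 0.0912 and 0.0703. Lrp6 read 4790 to 5395 untreated and 3576 to 5392 in treated libraries, and no comparison passed 0.05. After PAM from day 2 Lrp6 read 4473, 4495 and 3941, below all untreated libraries (-0.24, adjusted p = 0.0552). Its difference over the 9 libraries from day 1 was -0.13 (SE 0.09, adjusted p = 0.296). The ratio of Lrp5 to Lrp6 within a library was 0.873 ± 0.0540 (SD, n = 4) untreated, 1.42 ± 0.267 (n = 3) after PAM from day 1 and 1.44 ± 0.335 after indirect CAP from day 2. Line 2 had the lowest Lrp5 in 5 of the 6 treated groups.

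**Figure D4:**
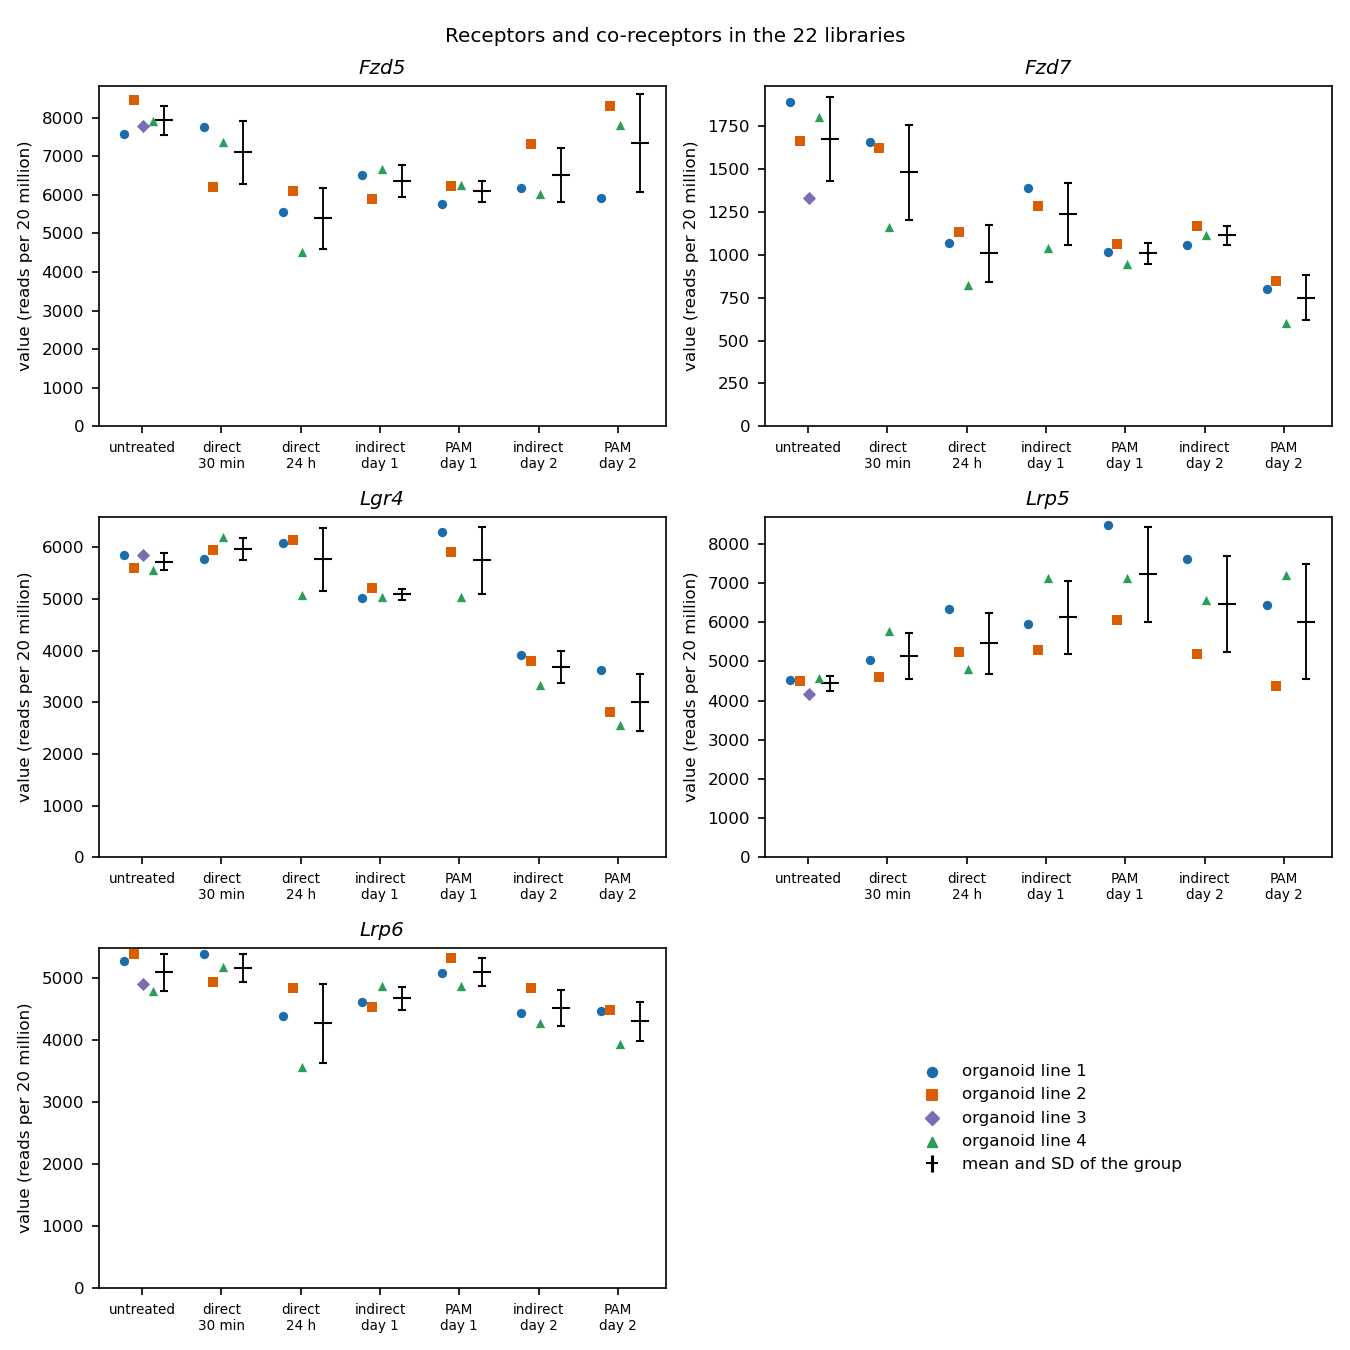
Values of the 2 Frizzled receptors, Lgr4, Lrp5 and Lrp6 (reads per 20 M, not per length) in each library by group, drawn as for the ligands, each axis starting at 0. Fzd7 has a mean of 1672 untreated and 750.0 after PAM from day 2, and Lgr4 lies below all other groups after exposure from day 2.

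Counted over the members, 0 of the 8 tested were called in direct CAP for 30 min (0.00564% of all 17731 genes tested were), 0 of 9 in direct CAP for 24 h (2.17%) and 0 of 9 in indirect CAP from day 1 (1.31%). In PAM from day 1 it was 3 of 9 (10.2%), in indirect CAP from day 2 it was 2 of 9 (11.9%), in PAM from day 2 it was 3 of 8 (17.3%) and over the 9 libraries from day 1 it was 1 of 10 (6.34%). At an unadjusted p under 0.05 in limma's test the members numbered 1 in direct CAP for 30 min (24.9% of all genes), 8 in direct CAP for 24 h (32.6%) and 7 in indirect CAP from day 1 (38.6%). With an adjusted p under 0.05 and no floor on the fold, 6 of 9 members passed in direct CAP for 24 h (17.3% of all genes), 4 of 9 in indirect CAP from day 1 (20.6%), 7 of 9 in PAM from day 1 (41.8%), 8 of 9 in indirect CAP from day 2 (43.8%), 4 of 8 in PAM from day 2 (47.6%) and 7 of 10 over the 9 libraries from day 1 (33.5%). Over those 9 libraries 2 members lay below all untreated libraries (10.5% of all genes did) and 2 above them (7.16%), and in PAM from day 2 it was 5 below (32.6%). Members that passed the filter through their high group alone, as Wnt6, Wnt9a and Wnt9b did, add to these counts. The median log2 fold change of the tested members was -0.09 over the 9 libraries from day 1 and -0.59 in PAM from day 2, against -0.054 and -0.118 for all genes. The members moved in both directions, so these shares describe no common change. In PAM from day 2 quantile normalization shifted the median of all genes by 0.118, and the signs of the members did not turn.

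**Figure D5:**
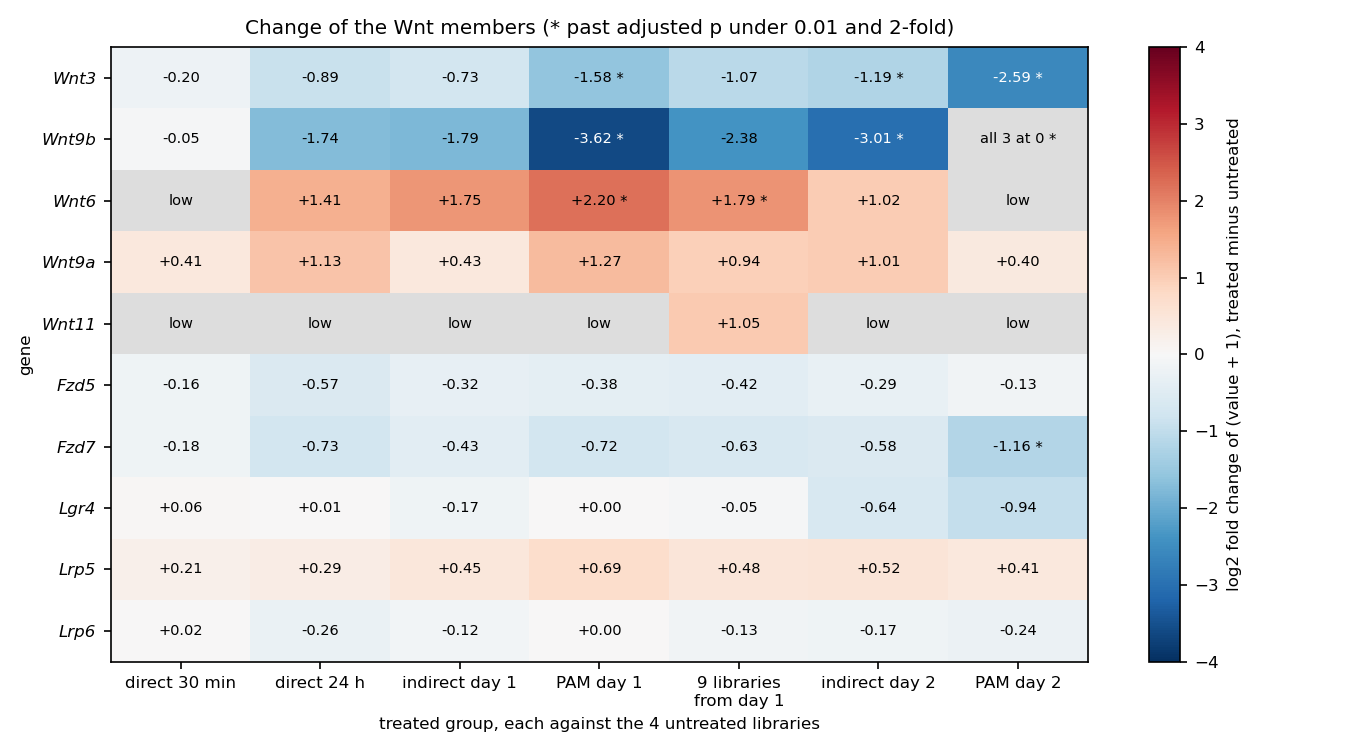
Log2 fold change of each gene (rows) in each treated group against untreated (columns), on the log2(value + 1) scale, with a star for calls. Grey cells are genes too low to test, marked low, and Wnt9b in PAM from day 2, listed at 0 in all 3 libraries. Wnt3 and Wnt9b are lower in every group exposed for 24 h, to -2.59 for Wnt3 in PAM from day 2. Wnt6 is higher in those of these groups where it could be tested, to 2.20 in PAM from day 1.

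Between treated groups 0 members passed the test. Among all genes, 2 passed in indirect CAP from day 2 against day 1 (0.0111% of genes tested) and 0 in the other 5 of these comparisons (0%). At an unadjusted p under 0.05 in limma's test the members numbered 3 in direct CAP for 24 h against 30 min (21.4% of all genes), 0 in indirect against direct CAP from day 1 (6.95%), 2 in PAM against direct CAP from day 1 (10.4%), 2 in indirect CAP from day 2 against day 1 (21.7%), 3 in PAM from day 2 against day 1 (26.8%) and 2 in PAM against indirect CAP from day 2 (9.48%). The adjusted p was under 0.05 for 1 member, Lgr4, in indirect CAP from day 2 against day 1 (3.37% of all genes). In direct CAP for 24 h against 30 min the 3 members at an unadjusted p under 0.05 were Wnt9b, Fzd7 and Fzd5. They gave -1.69 (SE 0.50, adjusted p = 0.205), -0.55 (adjusted p = 0.205) and -0.40 (adjusted p = 0.212). Wnt6 was not among them, with 0.77 (SE 0.35, adjusted p = 0.247). PAM from day 2 against day 1 gave -1.53 for Wnt6 (SE 0.32, adjusted p = 0.0622), which passed with all groups in one fit (adjusted p = 0.00201) but not with the line as a block (0.0423), quantile normalization (0.0477), a pseudocount of 10 (0.0593) or no filter (0.111). PAM against direct CAP, both from day 1, gave 0.79 for Wnt6 (SE 0.33, adjusted p = 0.466) and 0.40 for Lrp5 (adjusted p = 0.464).

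Of 84 other genes listed for the pathway, 83 were in the table and 51 were tested over the 9 libraries from day 1, where 4 rose and 5 fell (6.34% of all genes were called in either direction). In PAM from day 2 it was 4 and 11 of 51 (17.3% of all genes). Among ligands and their export Wnt7b rose (log2 fold change 1.90, adjusted p = 0.00437), as did Porcn, the acyltransferase that lipidates Wnt proteins (1.12, adjusted p = 0.00289). Among receptors Fzd2 fell (-2.28, adjusted p = 0.00605) and so did Fzd9 (-1.08, adjusted p = 0.00421). In the R-spondin system the stem cell receptor Lgr5 fell (-3.17, adjusted p = 0.00416), while Lgr4 differed by -0.05 (adjusted p = 0.654) over the same 9 libraries. After PAM from day 2 Lgr4 was lower too (-0.94, adjusted p = 0.000779). Over the 9 libraries Rspo4 rose (1.88, adjusted p = 0.00539) from 1 to 3 untreated, having passed the filter only through treated libraries. Of the targets, Nkd1 (-2.51, adjusted p = 0.00189) and Axin2 (-1.91, adjusted p = 0.00356), both feedback inhibitors, fell, and Ccnd1, cyclin D1, rose (1.04, adjusted p = 0.00107). None of the inhibitors, cytoplasmic or nuclear factors tested passed there, and in PAM from day 2 the cytoplasmic Apc2 (2.55, adjusted p = 0.000653) and Dvl1 (1.20, adjusted p = 0.00570) rose.

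Over the 22 libraries and 19369 other genes, the pattern most like that of Wnt3 belonged to Kit (Pearson r of log2(value + 1) 0.978), AC122228.1 (0.970) and Greb1 (0.968), and that most like Wnt9b to Nptx1 (0.970), Acvr1c (0.961) and Slc16a12 (0.961). Fzd7 was most like Ash2l (0.947), Znrf3 (0.942), which clears Frizzled receptors, and Adra2a (0.942). Lgr4 was most like Slc7a4 (0.968), Brca1 (0.964) and Mospd3 (0.953), and Lrp5 most like Lamc1 (0.936), Macf1 (0.924) and Cep170b (0.919). Wnt6 was most like Tfcp2l1 (0.914), Anxa9 (0.912) and Sept8 (0.903), Wnt9a like Hsd17b2 (0.853), E230013L22Rik (0.853) and Kif5c (0.830), and Wnt11 like Azgp1 (0.893), A630009H07Rik (0.856) and Gm45076 (0.815). Fzd5 was most like its overlapping gene Gm38058 (0.957), then Gm43579 (0.797) and Sh3rf1 (0.793), and Lrp6 like Brip1os (0.861), Gm16726 (0.849) and Phactr4 (0.848). These libraries share lines and treatments, so the r values describe likeness and were not tested.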

How the data were processed

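RNA-seq of 22 mouse organoid libraries was analysed. Per the labels and the study's methods, the authors trimmed reads with Trimmomatic 0.36, aligned them to GRCm38 with STAR 2.5.3a and counted them with HTSeq 0.9.1. The deposited values are a score, reads per gene that the authors brought to a total of 20 M per library, rounding up. The unscaled counts, and hence count tests, were not used. Sums were 20007540 to 20016513 per library. Reads per library were estimated from the spacing of low values.

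Values were tested as log2(value + 1) with the trended moderated test of limma 3.58.1 in R 4.3.3, over genes at 10 or more in at least 3 fitted libraries. Plots used matplotlib 3.10.9 (Python 3.11.15). Scripts were tested on simulated data. Identifiers matched GENCODE vM21 on GRCm38 for 99.6% of genes.

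Libraries with the same replicate number share an organoid line. After removing group means, the median correlation was 0.536 within lines (above 0.1 in 60 of 63 pairs) and -0.306 between lines, so the line served as a block in an alternative. Untreated lines 1 and 2 correlated better with each other's treated libraries (0.422) than with their own (0.131). Their labels are thus in doubt, and the untreated values given per line and the fits with the block rest on them. Replicates are lines from separate mice. The genes named were all 10 members, up to 3 called genes per role of a fixed pathway list and the 3 genes most alike to each member. The members and lists were chosen with earlier results of these data known. Alternatives were the line block, a joint fit of all 7 groups, quantile normalization, dropping the filter, a pseudocount of 10, a looser threshold (adjusted p under 0.05, any fold), leaving out each library and, added after seeing the data, untreated lines 3 and 4 alone.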

Additional observations from a re-analysis of the deposited data

Results flagged for a closer look

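Lrp5 in the untreated libraries stood out because 1 library lay apart from the other 3. Line 3 read 4166 against 4502 to 4566 in lines 1, 2 and 4, a gap of 0.84 of the whole range, above the limit for 4 values. The 10 members gave 10 such groups of 4, and chance marks about 1 in 20. All 9 libraries of CAP for 24 h from day 1 lay above the highest untreated value, so line 3 does not decide that order.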

How the results depend on the processing

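No call of a member turned its sign. Differences near 0 did turn: with quantile normalization Wnt9a in direct CAP for 30 min went to -0.0653 and in indirect CAP from day 1 to -0.0569, Lgr4 in direct CAP for 24 h to -0.0101 and in PAM from day 1 to -0.0402, and Lrp6 in PAM from day 1 to -0.0302, or -0.0164 with the replicate block. Wnt9b in direct CAP for 30 min went to 0.20 with untreated lines 3 and 4 alone. Leaving out a library gave -0.47 to 0.0761 for Wnt3, -0.45 to 0.20 for Wnt9b and -0.0077 to 0.0552 for Lrp6 in direct CAP for 30 min, -0.0405 to 0.0983 for Lgr4 in direct CAP for 24 h, -0.0313 to 0.0324 for Lrp6 and -0.0673 to 0.0932 for Lgr4 in PAM from day 1, and -0.22 to 0.0241 for Fzd5 in PAM from day 2. The number of members called moved as follows. Over the 9 libraries of CAP for 24 h from day 1 it was 1, and 2 with quantile normalization, a pseudocount of 10 or all 7 groups in one fit, and 7 at the looser threshold (adjusted p under 0.05, any fold, "at 0.05" in what follows). Leaving out a library gave 1 to 4, the 4 without line 2 of indirect CAP from day 1. In direct CAP for 24 h it was 0, 1 with all groups in one fit and 6 at 0.05. In indirect CAP from day 1 it was 0, 1 with all groups and 4 at 0.05. In PAM from day 1 it was 3, 2 with quantile normalization or no filter (Wnt3 lost), 3 with all groups (Wnt9a in place of Wnt3), 1 with the replicate block, 7 at 0.05 and 1 with untreated lines 3 and 4 alone, an alternative chosen after seeing the data. Leaving out a library there gave 0 to 2, the 0 without line 4 of PAM. In indirect CAP from day 2 it was 2, 1 with quantile normalization, no filter or the block, 2 with all groups (Wnt6 in place of Wnt3), 8 at 0.05 and 0 with untreated lines 3 and 4 alone, and 1 to 2 without a library. In PAM from day 2 it was 3, 2 with quantile normalization (Fzd7 under 2-fold), 4 at 0.05, 3 to 4 without a library and 0 with untreated lines 3 and 4 alone, where calls among all genes went from 3063 to 1 and Wnt9b could not be tested. Indirect CAP from day 2 against day 1 went from 0 to 1 at 0.05, and PAM from day 2 against day 1 from 0 to 1 with all groups. The replicate block changed no other call of a member than those given beside the results. Leaving out a library ended the call of Wnt3 in PAM from day 1 in 6 of 7 fits (adjusted p 0.00131 to 0.0300) and in indirect CAP from day 2 in 6 of 7 (0.00561 to 0.0214), and that of Wnt9b in PAM from day 1 in 3 of 7 (0.000907 to 0.0140). Wnt6 over the 9 libraries kept its call in 13 of 13. The cause of these changes was not tested, beyond the fewer libraries fitted. Depth limits Wnt6, Wnt9a, Wnt9b and Wnt11, whose values of about 10 rest on about as many reads.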
